A study of Mus musculus with 8 samples.

Results

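Mitotic genes encode the proteins that carry a cell through division, from the kinase and cyclins that start mitosis to the motors that pinch the daughter cells apart. A set of 40 such genes was chosen by name, and all 40 were found among the 56748 genes of the count table. They were read in peripheral blood mononuclear cells of male C57BL/6J mice, labelled wild type and 8 weeks old, that were gavaged daily for 1 month. In the 3 fucoidan libraries the mice received fucoidan of Undaria pinnatifida, a sulphated polysaccharide of a brown seaweed, at 200 mg per kg per day, and in the 5 saline libraries they received saline. Blood was drawn by cardiac puncture, mononuclear cells were separated on a density gradient, and poly(A) RNA was sequenced as 2 reads of 150 bases. Each library is titled a biological replicate, but the sources used here do not say whether it held 1 mouse or a pool, and p-values measure the spread between these libraries. Transcripts of T cells (Cd3e), B cells (Cd79a), monocytes (Csf1r) and natural killer cells (Ncr1) were present in all 8 libraries.

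At the entry to mitosis the kinase Cdk1, bound to a cyclin, triggers chromosome condensation and assembly of the spindle. Kinetochores then attach chromosomes to microtubules while a checkpoint holds back the anaphase-promoting complex, a ubiquitin ligase that later destroys securin and the cyclins, so that sister chromatids part and the cell exits mitosis. Most of these genes are transcribed in G2 and M phase, repressed in resting cells by the DREAM complex and activated by the MuvB complex with B-Myb and FoxM1. Most circulating mononuclear cells are at rest, and in blood these transcripts are used as signs of the few dividing cells.

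RefSeq promoters (250 bases before to 50 after the annotated start, genome build GRCm38.p6) were at hand for 34 of the 40 genes, not including Pbk, Kif20a, Ccna2, Aurkb, Spc24 and Tpx2. They were searched on both strands for CCAAT, the box bound by NF-Y, and for 3 spellings of the cell cycle homology region read by DREAM and MuvB, which are TTTGAA, the palindrome TTCGAA, and CTTGAA, a variant. A gene with more than 1 annotated start was counted once, if any of its windows matched. CCAAT occurred in 27 of the 34 genes (79.4%), against 41.1% of all 27025 genes. TTTGAA occurred in 26 (76.5%, against 20.2%), and both motifs in 23 (67.6%, against 7.97%). TTCGAA was in 3 genes (8.82%, against 1.80%) and CTTGAA in 4 (11.8%, against 14.8%). A match describes the letters of the window and is not evidence of binding. Matches overlapped at the forward and reverse CCAAT at -186 and -183 of Ube2c and at the TTTGAA and CCAAT at 14 and 19 of Cdca8, positions being counted from the start to the first base of the match. The 100 bases before the start are shown for the 3 genes whose transcripts rose (Ube2c, Nusap1 and Pttg1) and for 3 genes whose transcripts were not called (Cdk1, Kif11 and Cdc20), each 5′ to 3′ on its own strand. Capitals mark CCAAT or TTTGAA on the printed strand, or the same motif on the other strand, which reads ATTGG or TTCAAA here.
Ube2c: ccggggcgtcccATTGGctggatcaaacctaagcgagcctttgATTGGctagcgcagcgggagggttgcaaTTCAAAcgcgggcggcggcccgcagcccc
Nusap1: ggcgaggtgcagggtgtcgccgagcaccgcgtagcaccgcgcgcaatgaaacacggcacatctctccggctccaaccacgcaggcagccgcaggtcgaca
Pttg1: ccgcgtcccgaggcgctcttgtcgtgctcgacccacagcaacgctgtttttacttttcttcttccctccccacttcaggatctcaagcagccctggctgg
Cdk1: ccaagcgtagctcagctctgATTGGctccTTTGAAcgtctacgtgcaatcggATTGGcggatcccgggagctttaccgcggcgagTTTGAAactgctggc
Kif11: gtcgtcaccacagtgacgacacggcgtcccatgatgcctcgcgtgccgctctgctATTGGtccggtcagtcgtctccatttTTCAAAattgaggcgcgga
Cdc20: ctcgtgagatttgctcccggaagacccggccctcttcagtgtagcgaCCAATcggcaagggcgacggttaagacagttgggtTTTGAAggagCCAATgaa
In GRCm38.p6 these lie at chr2:164769829-164769928 on the plus strand for Ube2c, chr2:119618198-119618297 on the plus strand for Nusap1, chr11:43425982-43426081 on the minus strand for Pttg1, chr10:69352913-69353012 on the minus strand for Cdk1, chr19:37376282-37376381 on the plus strand for Kif11 and chr4:118437344-118437443 on the minus strand for Cdc20. The 3 risers did not share these letters. The Ube2c window held 6 CCAAT matches and TTTGAA at -29. The Nusap1 window held none of the 4 motifs, and the Pttg1 window held only CTTGAA, at position 2 after the start. Cdk1, with 3 CCAAT and 2 TTTGAA matches, and Cdc20, with 2 and 1, carried the motifs without a called difference in their transcripts.

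Library measures stand beside every result. Total counts ran from 13061703 to 16334932. In order of replicate, the factors of TMM scaling were 0.916, 0.944 and 0.697 in fucoidan libraries. In saline libraries they were 1.09, 1.14, 1.02, 1.12 and 1.17. A lower factor raises the scaled counts of its library. Haemoglobin genes took 14.2, 13.5 and 24.1% of counts in fucoidan libraries (mean 17.3 ± 5.93%, SD, n = 3), against 5.59, 4.55, 8.48, 4.89 and 3.51% in saline libraries (5.40 ± 1.88%, SD, n = 5), so fucoidan replicate 3 and saline replicate 3 were the highest of their groups. The first principal component held 43.5% of the variance and set fucoidan replicate 3 at 65.01 apart from the other fucoidan libraries, at 29.27 and 27.77, and from saline libraries, at -33.56 to -14. All labels give 1 batch date.

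Of the 38 mitotic genes that could be tested, 3 rose (Ube2c, Nusap1 and Pttg1) and 0 fell by edgeR. DESeq2 called 5 higher and 0 lower, and limma-voom 3 higher and 0 lower. Of 14723 genes tested with edgeR's quasi-likelihood test, 13.8% (2025 genes) had an adjusted p (Benjamini-Hochberg) under 0.05, the threshold for a call, 9.11% higher and 4.65% lower in fucoidan libraries. Ttk and Pbk, with at most 10 and 7 counts in any library, did not pass the filter on low counts, and the 3 called genes are 7.89% of the 38. Leaving out a library also redid the filter. Without fucoidan replicate 3, 928 of 15202 genes tested were called, 746 of them higher. Without saline replicate 4, 1291 of 14449 genes tested were called. The genes lower in fucoidan libraries numbered 684, but 439 under the replicate block, 182, 315 or 365 without fucoidan replicate 3, 2 or 1, and 325 or 447 without saline replicate 4 or 3. The split of 1341 higher and 684 lower was 1241 and 989 with upper-quartile factors, and 1035 and 2050 with library totals without haemoglobin genes. At an unadjusted p under 0.05, 9 of the 38 mitotic genes were higher and 2 lower, against 2158 and 1964 of all 14723 genes tested. The median log2 fold change of the 38 was 0.37, and 0.31 for the 35 that were not called, against -0.04 for all genes tested. A log2 fold change above 0 was found in 30 of the 38 (78.9%), against 44.9% of all genes, and in 27 of the 38 with library totals without haemoglobin genes. In 6 genes (15.8%: Ube2c, Nusap1, Pttg1, Ccna2, Hmmr and Ccnb2) every fucoidan library lay above every saline library, against 11.6% of all genes, and in 1 gene (2.63%: Aurkb) every fucoidan library lay below, against 11% of all genes. Genes are not independent of each other, and these shares carry no test.

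**Figure D1:**
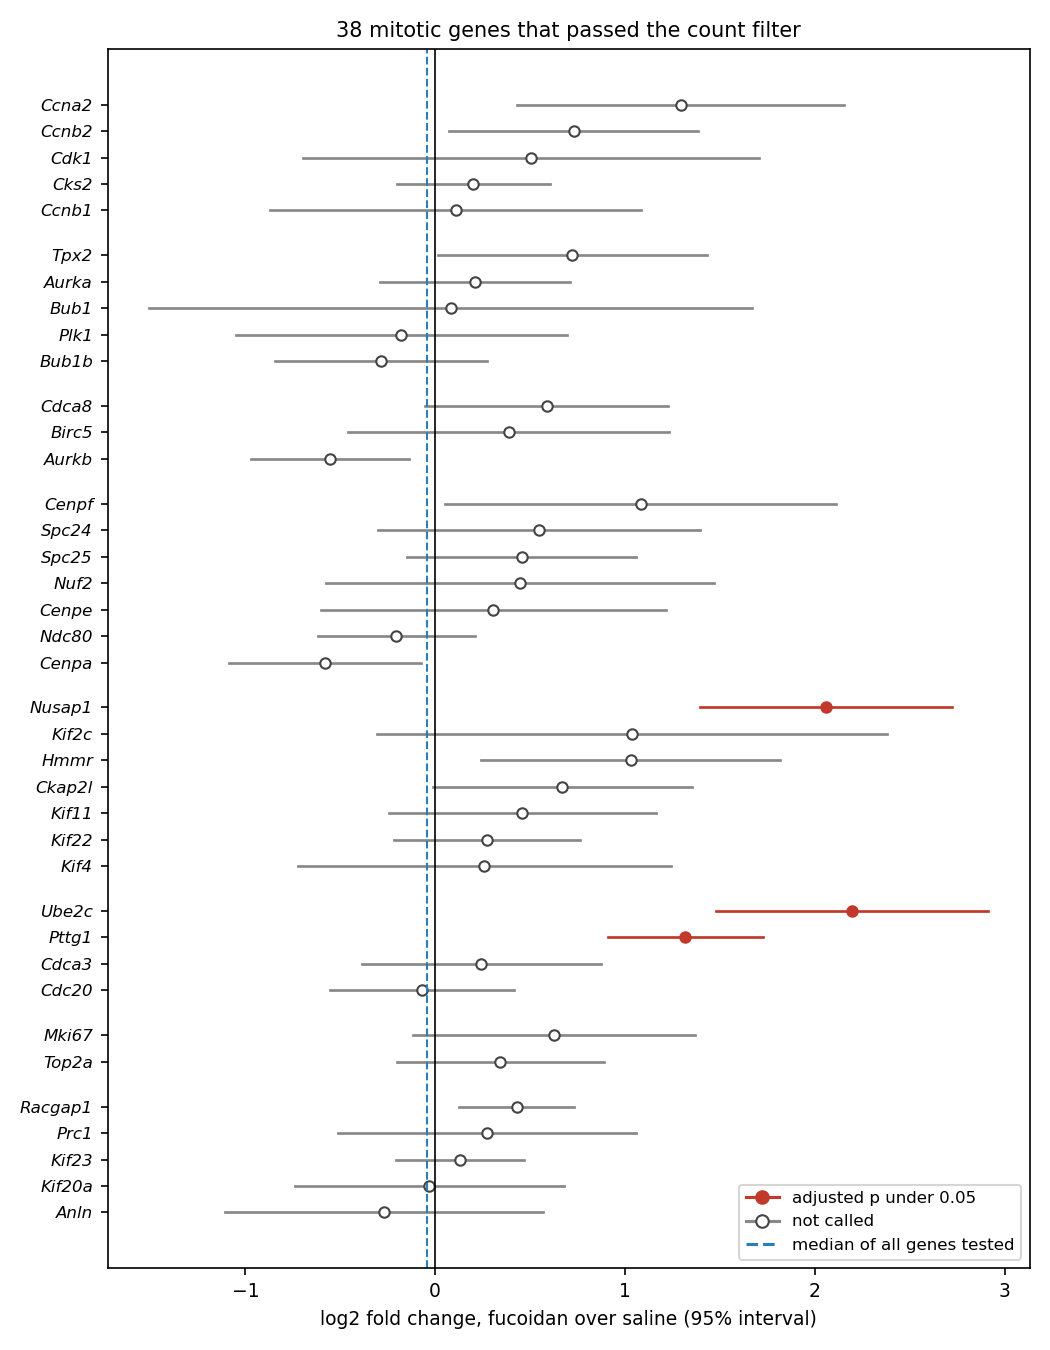
Log2 fold change of each of the 38 tested mitotic genes, fucoidan over saline, with its 95% interval from edgeR's quasi-likelihood test, grouped by role, and a dashed line at the median of all genes tested. Ube2c (2.20), Nusap1 (2.06) and Pttg1 (1.32) are the genes called at an adjusted p under 0.05, and most other intervals cross 0.

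Ube2c is a ubiquitin-conjugating enzyme that works with the anaphase-promoting complex (chromosome 2, 164611818 to 164620742, plus strand, in the table's build GRCm39). It showed the largest log2 fold change of the 38. It reached 104, 110.3 and 211 CPM (counts scaled to library size) in fucoidan libraries, against 24.3, 20.8, 53.9, 35.1 and 20.4 CPM in saline libraries. Every fucoidan library lay above every saline library, and replicate 3 was the highest in both groups. The means were 141 ± 59.9 CPM in fucoidan (SD, n = 3) and 30.9 ± 14.2 CPM in saline libraries (SD, n = 5), a log2 fold change of 2.20 (SE 0.326, 95% interval 1.48 to 2.91, edgeR adjusted p = 0.00396).

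Nusap1, a protein that bundles spindle microtubules around chromosomes (chromosome 2, 119448779 to 119481725, plus strand), was at 61.5, 67.3 and 132 CPM in fucoidan libraries, against 17.0, 15.9, 35.1, 21.0 and 15.2 CPM in saline libraries. The groups did not overlap, and again replicate 3 was the highest of each. Its log2 fold change was 2.06 (SE 0.301, 95% interval 1.40 to 2.72, edgeR adjusted p = 0.00396).

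Pttg1 encodes securin, the inhibitor of separase whose destruction lets sister chromatids part (chromosome 11, 43311077 to 43317078, minus strand). It was at 68.2, 72.2 and 109.9 CPM in fucoidan libraries, against 35.4, 26.8, 43.5, 33.9 and 27.5 CPM in saline libraries. These values did not overlap, with replicate 3 highest in both groups. The log2 fold change was 1.32 (SE 0.186, 95% interval 0.91 to 1.73, edgeR adjusted p = 0.00396). Without fucoidan replicate 3 the log2 fold changes were 1.80 for Ube2c, 1.64 for Nusap1 and 1.08 for Pttg1, all still called.

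**Figure D2:**
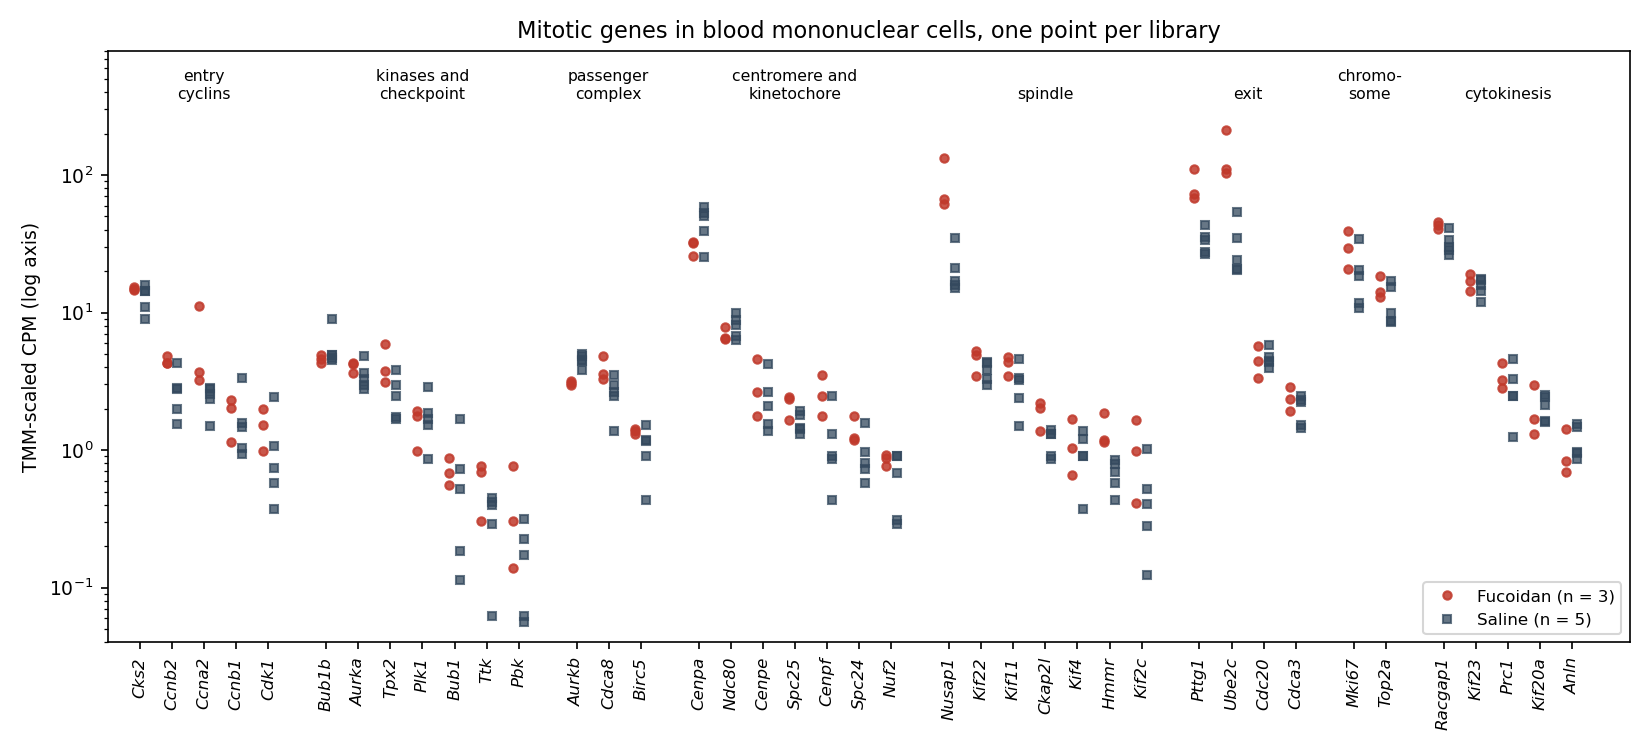
TMM-scaled CPM on a log axis of all 40 mitotic genes, 1 point per library, fucoidan (3 libraries, circles) left of saline (5 libraries, squares) for each gene, by role. Ube2c, Nusap1 and Pttg1 separate the groups, whereas Mki67, Top2a and Cdk1 overlap.

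These 3 transcripts made up much of the summed CPM of the 40 genes. Their summed CPM averaged 312 ± 122 in fucoidan libraries (SD, n = 3) and 85.1 ± 28.7 in saline libraries (SD, n = 5), a ratio of 3.66. The 3 were set apart because they were called higher in these same libraries, so a high ratio was built into that choice. They held 51.5, 52.8 and 64.0% of the summed CPM of all 40 genes in fucoidan libraries, against 31.2, 20.2, 40.0, 31.4 and 23.3% in saline libraries. The other 37 genes summed to 219.7, 223 and 254 CPM in fucoidan libraries, against 169, 250.05, 199, 197 and 208 CPM in saline libraries. The 37 overlapped between the groups, with a ratio of means of 1.14, while the sum over all 40 had a ratio of 1.88 and did not overlap. Both ratios rest on the TMM scaling. The ratio for the 40 was 1.62 with library totals without haemoglobin genes, and 1.41 as a share of all counts. For the 37 the ratio was not computed under those scalings, so its direction is given for TMM scaling only and may differ with the others. Summed over the 40, fucoidan libraries held 544 ± 141 CPM (SD, n = 3) and saline libraries 289.5 ± 33.9 CPM (SD, n = 5). A list of 72 other mitotic genes, described below, summed to 1209 to 1485 CPM in fucoidan and 1029 to 1134 CPM in saline libraries.

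**Figure D3:**
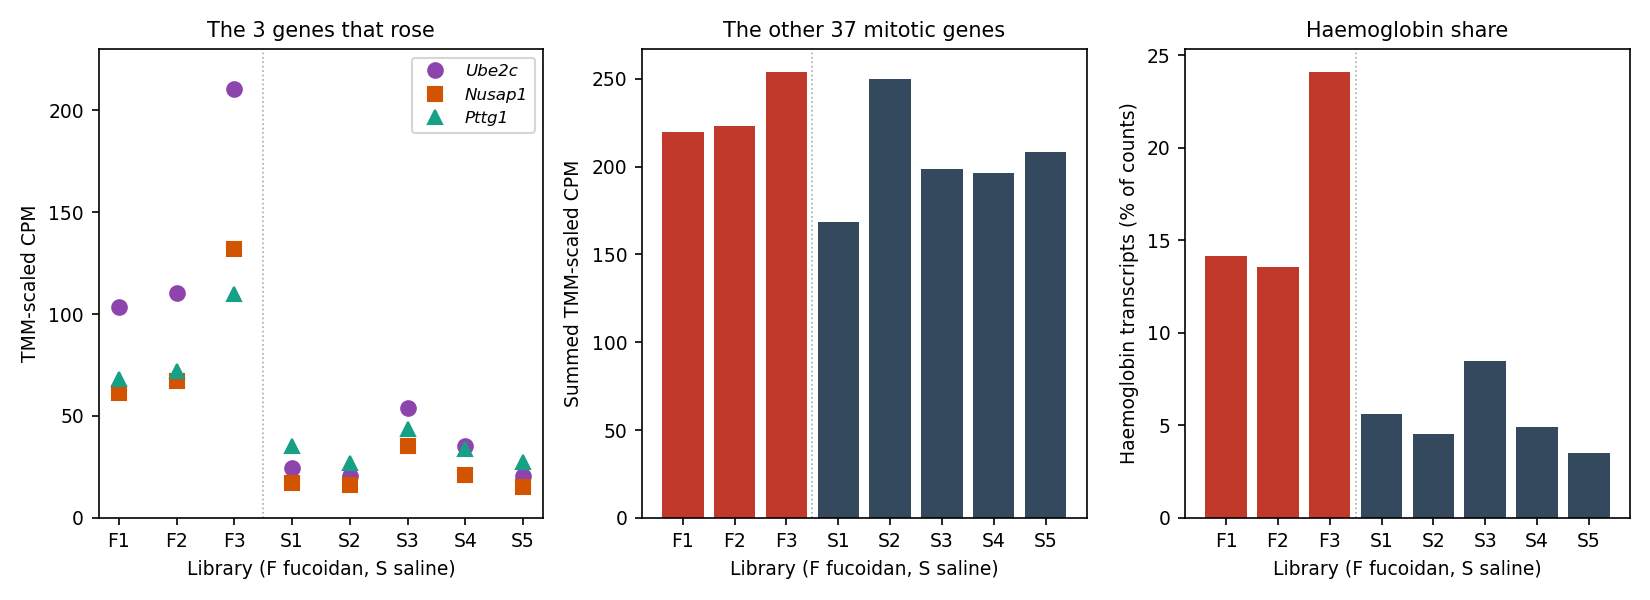
CPM of Ube2c, Nusap1 and Pttg1 (points), summed CPM of the other 37 mitotic genes (bars) and the percentage of counts from haemoglobin genes (bars) in each library, fucoidan left of saline. The 3 genes were set apart because they were called in these libraries. They and the haemoglobin share are highest in replicate 3 of both groups. The sum of the 37 in TMM-scaled CPM is highest in fucoidan replicate 3 and, among saline libraries, in replicate 2. Fucoidan replicate 3 had the lowest TMM factor (0.697).

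Levels differed widely among the mitotic genes. Per kilobase of the gene length in the table, Ube2c (54.4 CPM per kilobase in fucoidan, 11.9 in saline) was highest in fucoidan libraries. Pttg1 (41.7 in fucoidan, 16.7 in saline), Cks2 (21.5 in fucoidan, 18.7 in saline) and Nusap1 (21.4 in fucoidan, 5.13 in saline) followed. In saline libraries the order was Cks2, Pttg1 and Ube2c, and Cenpa lay above Nusap1. By the same measure Racgap1 was at 6.08 in fucoidan and 4.51 in saline, Cenpa at 5.16 in fucoidan and 7.73 in saline, and Mki67 at 2.95 in fucoidan and 1.90 in saline libraries. In CPM, 9 genes averaged at least 10 in both groups, 28 averaged under 5 in both and 14 under 2. In bulk blood cells, fewer cells of a type and less RNA per cell cannot be told apart.

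The kinase and cyclins of mitotic entry were not called. Ccna2 encodes cyclin A2, which acts in S phase and at mitotic entry, and was at 3.67, 3.21 and 11.2 CPM in fucoidan libraries, against 2.55, 2.76, 1.49, 2.37 and 2.84 CPM in saline libraries. The groups did not overlap, but fucoidan replicate 3 stood well above the other fucoidan libraries. Its log2 fold change of 1.29 (SE 0.392) had an edgeR adjusted p of 0.0505 in all libraries and was 0.52 without fucoidan replicate 3 (adjusted p = 0.377). It was called in 5 alternatives, with DESeq2 (adjusted p = 0.0106), without the filter on low counts (0.0278), with median-of-ratios factors (0.0492), and by edgeR without fucoidan replicate 1 (0.0409) or 2 (0.0282). Ccna2 shares 863 bases of its span with Exosc9 on the other strand, and the sources used here do not say whether counting used strand, so reads of either gene may be counted with the other. Cyclin B2 (Ccnb2) was at 4.29, 4.81 and 4.29 CPM in fucoidan libraries, against 2.83, 4.28, 1.98, 1.56 and 2.78 CPM in saline libraries, also without overlap (log2 fold change 0.73, edgeR adjusted p = 0.136). A pseudogene listed as Ccnb2-ps held 23 to 76 counts per library, so reads of Ccnb2 may be split with it. Cdk1, the kinase itself, was at 1.52, 0.993 and 1.98 CPM in fucoidan libraries, against 1.07, 2.42, 0.372, 0.578 and 0.735 CPM in saline libraries. Those values overlapped, and the 95% interval of the log2 fold change ran from -0.70 to 1.71. Ccnb1 (cyclin B1, 0.11) and Cks2, a small subunit of the Cdk complexes (0.20), had smaller log2 fold changes that were not called.

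The mitotic kinases and checkpoint genes likewise gave no call among 5 tested. Polo-like kinase Plk1 was at 1.94, 0.993 and 1.76 CPM in fucoidan libraries, against 1.70, 2.87, 0.868, 1.85 and 1.52 CPM in saline libraries. Aurora A (Aurka), which matures the spindle poles, averaged 4.04 ± 0.358 CPM in fucoidan (SD, n = 3) and 3.51 ± 0.801 CPM in saline libraries (SD, n = 5). Tpx2, its activator on the spindle, averaged 4.27 ± 1.48 CPM in fucoidan (SD, n = 3) and 2.55 ± 0.898 CPM in saline libraries (SD, n = 5). Their groups overlapped, with log2 fold changes of -0.18 for Plk1, 0.21 for Aurka and 0.72 for Tpx2 (edgeR adjusted p = 0.169 for Tpx2). The checkpoint kinase Bub1 averaged 0.707 ± 0.164 CPM in fucoidan (SD, n = 3) and 0.646 ± 0.630 CPM in saline libraries (SD, n = 5). Bub1b, the checkpoint protein BubR1, averaged 4.58 ± 0.298 CPM in fucoidan (SD, n = 3) and 5.60 ± 1.88 CPM in saline libraries (SD, n = 5), and neither was called. The kinases Ttk, at 0.305 to 0.770 CPM in fucoidan and 0.062 to 0.450 CPM in saline libraries, and Pbk, at 0.138 to 0.770 CPM in fucoidan and 0.0566 to 0.315 CPM in saline libraries, were too low to test.

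The chromosomal passenger complex corrects faulty attachments and then marks the midzone. Its catalytic subunit Aurora B (Aurkb) was at 2.98, 3.05 and 3.19 CPM in fucoidan libraries, against 4.98, 3.83, 4.84, 4.51 and 4.41 CPM in saline libraries. Every fucoidan library lay below every saline library. The log2 fold change was -0.55 (SE 0.190, edgeR adjusted p = 0.0783) and was not called, and -0.74 (adjusted p = 0.0257) when library totals without haemoglobin genes replaced the TMM factors. That scaling also lowered the median of all genes, which was -0.23 with it and -0.04 with TMM factors. The subunits survivin (Birc5) and borealin (Cdca8) had log2 fold changes of 0.39 and 0.59, neither called.

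Centromere and kinetochore genes pointed both ways. Cenpa, the histone H3 variant that marks centromeres, was at 32.2, 32.6 and 25.9 CPM in fucoidan libraries, against 25.4, 50.6, 52.7, 58.5 and 39.3 CPM in saline libraries. Saline replicate 1 was the lowest of all 8 libraries, and the other saline libraries lay above every fucoidan library. The log2 fold change was -0.58 (SE 0.231, edgeR adjusted p = 0.126), and without saline replicate 1 it was -0.73 and called (adjusted p = 0.0166). It was also called, at -0.76, with library totals without haemoglobin genes, which lowered the median of all genes as given for Aurkb. Cenpf, a large kinetochore protein, had a log2 fold change of 1.08 (SE 0.470, adjusted p = 0.159) and the kinetochore motor Cenpe one of 0.31. The 4 subunits of the NDC80 complex, the microtubule-binding core of the kinetochore, had log2 fold changes of 0.45 (Nuf2), -0.20 (Ndc80), 0.55 (Spc24) and 0.46 (Spc25), none called.

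Among the spindle motors and microtubule proteins, Nusap1 alone of 7 was called, though all 7 log2 fold changes were above 0 (Kif4 was at -0.14 without fucoidan replicate 2). The spindle protein Hmmr was at 1.18, 1.15 and 1.87 CPM in fucoidan libraries, against 0.792, 0.844, 0.434, 0.694 and 0.578 CPM in saline libraries. The groups did not overlap, and the log2 fold change was 1.03 (SE 0.358, edgeR adjusted p = 0.0817). The microtubule depolymerase Kif2c (1.04), the spindle protein Ckap2l (0.67), the bipolar motor Kif11 (0.46) and the chromosome-arm motors Kif22 (0.27) and Kif4 (0.26) had overlapping groups. Kif11 averaged 4.18 ± 0.667 CPM in fucoidan libraries (SD, n = 3) and 3.02 ± 1.17 CPM in saline libraries (SD, n = 5), whereas Nusap1 averaged 86.9 ± 39.2 CPM in fucoidan (SD, n = 3) and 20.8 ± 8.29 CPM in saline libraries (SD, n = 5).

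Of the 4 genes of anaphase and mitotic exit, Ube2c and Pttg1 rose, and Cdc20 and Cdca3 were not called. Cdc20, the activator of the anaphase-promoting complex before anaphase, was at 4.43, 3.36 and 5.72 CPM in fucoidan libraries, against 5.83, 4.39, 3.97, 4.45 and 4.78 CPM in saline libraries. The groups overlapped, and the 95% interval of the log2 fold change was -0.55 to 0.42, beside 1.48 to 2.91 for Ube2c. Cdca3, a cell division protein, averaged 2.39 ± 0.462 CPM in fucoidan (SD, n = 3) and 2.00 ± 0.483 CPM in saline libraries (SD, n = 5). Ube2c and Cdc20 were measured in the same libraries, and the difference between their fold changes was not tested.

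The 2 chromosome-structure genes, the most used labels of dividing cells, were not called. Mki67, whose protein coats mitotic chromosomes and is the Ki-67 antigen, was at 20.6, 29.5 and 38.8 CPM in fucoidan libraries, against 11.7, 34.2, 10.7, 18.4 and 20.4 CPM in saline libraries. Saline replicate 2 lay above fucoidan replicates 1 and 2, and the log2 fold change was 0.63 (SE 0.339, 95% interval -0.12 to 1.37, edgeR adjusted p = 0.258). Top2a, the topoisomerase that untangles sister chromatids, was at 14.2, 12.98 and 18.4 CPM in fucoidan libraries, against 9.90, 17.0, 8.50, 8.73 and 15.3 CPM in saline libraries, a log2 fold change of 0.34. The ratio of Ube2c to Mki67 in a library was 3.74 to 5.42 in fucoidan libraries and 0.607 to 5.02 in saline libraries. Its extremes in saline were replicate 2, which had the highest saline Mki67, and replicate 3, which had the lowest saline Mki67 and the highest saline Ube2c.

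None of the 5 cytokinesis genes was called. Racgap1, a centralspindlin subunit that steers the cleavage furrow, was at 43.3, 40.2 and 45.6 CPM in fucoidan libraries, against 33.7, 28.5, 41.0, 26.4 and 30.1 CPM in saline libraries. Only saline replicate 3 reached into the fucoidan range, and the log2 fold change was 0.43 (SE 0.139, edgeR adjusted p = 0.0640). It was called by DESeq2 (adjusted p = 0.0366) and, at 0.54, without saline replicate 3 (edgeR adjusted p = 0.0136). Its partner motor Kif23 averaged 16.8 ± 2.40 CPM in fucoidan (SD, n = 3) and 15.4 ± 2.23 CPM in saline libraries (SD, n = 5), with a log2 interval of -0.21 to 0.47. The midzone bundler Prc1 (0.27), the furrow scaffold anillin (Anln, -0.27) and the midzone motor Kif20a (-0.03) had overlapping groups. The whole span of Prc1 is shared with Rccd1 on the other strand, and parts of Kif20a, Kif4, Cdca8 and Cdc20 with Cdc23, Pdzd11, 9930104L06Rik and Elovl1, so these values may hold reads of both partners.

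Of the 35 tested genes other than Ube2c, Nusap1 and Pttg1, 18 had their highest saline value in replicate 2 and 18 their lowest in replicate 3. Replicate 3 had the highest saline value for each of the 3 risers and, as above, the largest saline haemoglobin share. Among fucoidan libraries replicate 3, which had the lowest TMM factor (0.697), was the highest in TMM-scaled CPM for 25 of the 38. Without saline replicate 2, Mki67 (0.94), Ccnb2 (0.96) and Cenpf (1.52) were also called and the count of mitotic genes called was 6. Of the 35, 20 had a 95% interval that included a log2 fold change of 1, so that a rise of that size lies within the error of these genes, and 12 had intervals wholly between -1 and 1.

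Of 63 other mitotic genes tested, 5 (7.94%) rose, against 9.11% of all genes, and 0 fell, with a median log2 fold change of 0.12. Esco2, which acetylates cohesin in S phase, was at 4.08, 4.43 and 9.13 CPM in fucoidan libraries, against 1.07, 1.86, 1.43, 0.636 and 1.37 CPM in saline libraries (log2 fold change 2.18, edgeR adjusted p = 0.00406). The phosphatase Cdc25b (1.14, adjusted p = 0.00735), the kinetochore protein Zwint (0.81, adjusted p = 0.00561) and the cytokinesis motor Kif14 (1.29, adjusted p = 0.0251) also rose. With the replicate block Kif14 had an adjusted p of 0.059 and the count was 3, as it was without saline replicate 3 or fucoidan replicate 3. Kif14 also lost its call without saline replicate 5.

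Of 44 DNA replication genes tested, 2 (4.55%) rose, against 9.11% of all genes, and 0 fell, and the median was -0.02. Tyms (thymidylate synthase, 1.09, edgeR adjusted p = 0.0107) and Dut (dUTPase, 0.79, adjusted p = 0.0229) rose, and with the replicate block Tyms had an adjusted p of 0.0711 and the count was 1. Leaving out saline replicate 4 also gave a count of 1, as did leaving out replicate 1 or 3 of the fucoidan group. Tyms was not called without fucoidan replicate 1, nor Dut without fucoidan replicate 3 or saline replicate 4 or 5. The clamp Pcna was at 68.3, 61.4 and 61.1 CPM in fucoidan libraries, against 72.8, 75.7, 76.5, 64.1 and 74.2 CPM in saline libraries (log2 fold change -0.19), and it was called at -0.38 (adjusted p = 0.0431) with library totals without haemoglobin genes. The helicase subunit Mcm2 averaged 47.7 CPM in fucoidan and 47.9 CPM in saline libraries (log2 fold change -0.01), a value whose sign changed with the scaling.

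A list for the transcription of mitotic genes held DREAM, MuvB and FoxM1 genes together with NF-Y genes and other E2F genes, E2f1 and E2f2 among them. Of its 21 genes tested, 3 (14.3%) rose, against 9.11% of all genes, and 0 fell, with a median of 0.11. Tfdp2, a dimer partner of E2F, was at 351, 434 and 869 CPM in fucoidan libraries, against 114, 114, 223, 143 and 88.0 CPM in saline libraries (log2 fold change 2.01, edgeR adjusted p = 0.00396). E2f2 (1.20, adjusted p = 0.0122) and E2f1 (0.55, adjusted p = 0.0475) also rose, but with the replicate block E2f2 had an adjusted p of 0.0635 and E2f1 one of 0.221, and the count was 1. Without the filter on low counts E2f2 was not called either (adjusted p = 0.105). E2f1 was also not called when any fucoidan library or saline replicate 3, 4 or 5 was left out, with upper-quartile factors, with library totals without haemoglobin genes, without the filter or by limma-voom (adjusted p from 0.0183 to 0.221 over all alternatives). The activators Foxm1 (6.80 CPM in fucoidan and 4.99 CPM in saline libraries, log2 fold change 0.44) and Mybl2, which is B-Myb (1.91 CPM in fucoidan and 1.67 CPM in saline libraries, 0.21), were not called.

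Of 11 CDK inhibitors and G1 cyclins, all 3 D-type cyclins rose (27.3% of the list, against 9.11% of all genes) and 0 fell, with a median of -0.04. Ccnd2 was at 250.3, 264 and 272 CPM in fucoidan libraries, against 99.3, 132, 96.1, 75.2 and 178 CPM in saline libraries (log2 fold change 1.17, edgeR adjusted p = 0.00653). Ccnd3 (0.94, adjusted p = 0.00396) and Ccnd1 (1.02, adjusted p = 0.0174) rose too, Ccnd1 with an adjusted p of 0.0866 without fucoidan replicate 3. The inhibitors Cdkn1a (p21, -0.35) and Cdkn1b (p27, -0.23) were not called, although without saline replicate 1 Cdkn1b was called at -0.32 (adjusted p = 0.0469). Of 16 anaphase-promoting complex genes, 1 rose and 1 fell (6.25% each), against 9.11 and 4.65% of all genes, and the median was -0.09. Fzr1, the late-mitotic and G1 activator, rose (0.86, edgeR adjusted p = 0.00688), and Anapc15, a small subunit, fell (-1.07, adjusted p = 0.00723).

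**Figure D4:**
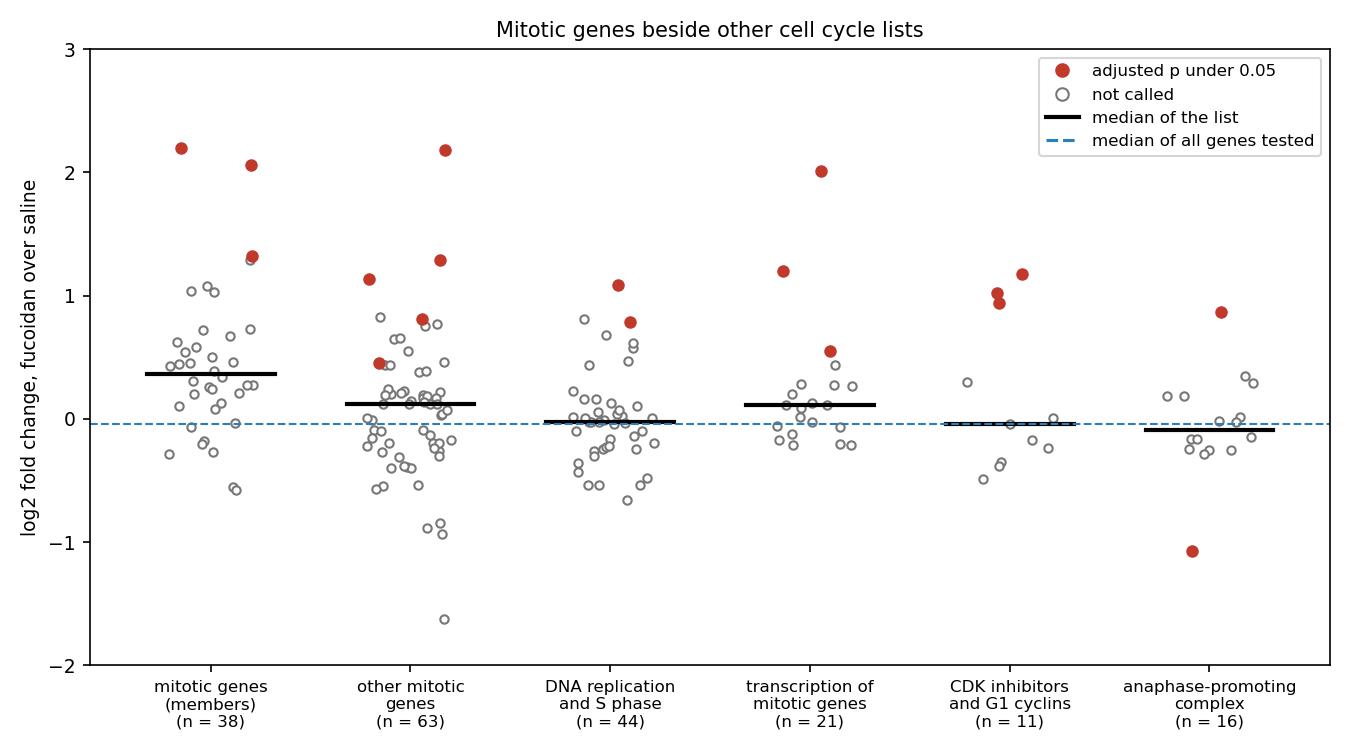
Log2 fold change, fucoidan over saline, of every tested gene in the 40-gene set and in 5 other lists of the division machinery, with a bar at the median of each list, called genes filled and a dashed line at the median of all genes tested. Medians run from -0.09 for the anaphase-promoting complex to 0.37 for the mitotic genes, and the list with the most called genes holds 5 of 63.

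Markers of other blood cells were read over the same libraries. Over all genes tested, 9.11% rose and 4.65% fell. Of 22 erythroid markers tested, 20 rose and 0 fell, with summed CPM of 160469 to 382471 in fucoidan libraries and 33038.7 to 91288 in saline libraries, and the haemoglobin transcripts Hba-a1, Hbb-bs and Hbb-bt were the most abundant. Of 11 markers of erythroblasts before enucleation, a stage that includes dividing cells, 8 rose and 0 fell, with summed CPM of 302 to 524 in fucoidan and 152 to 232 in saline libraries. Several of these markers also stand in the erythroid list, so the counts of these lists are not separate. Tfrc, the transferrin receptor that dividing erythroblasts carry, was not among the 8 (log2 fold change -0.02). All 14 platelet markers tested rose (9033 to 19259 CPM summed in fucoidan libraries, 2963 to 6261 CPM in saline libraries), as did all 13 natural killer markers (1498 to 1733 CPM in fucoidan, 503 to 850 CPM in saline libraries). The erythroid, erythroblast and platelet sums were highest in replicate 3 of both groups, as Ube2c, Nusap1 and Pttg1 were, and the natural killer sum was not.

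Of 14 T cell markers 3 rose and 0 fell (1426 to 1878 CPM summed in fucoidan and 1051 to 1312 CPM in saline libraries), and of 12 B cell markers 0 rose and 10 fell (4924 to 6923 CPM in fucoidan and 7825 to 10118 CPM in saline libraries). Of 8 plasma cell markers 0 rose and 2 (25%) fell. Among 12 monocyte markers 1 rose and 1 fell (8.33% each), against 9.11 and 4.65% of all genes. Of 6 neutrophil precursor markers none was called. Of 7 progenitor markers Kit rose (14.3%, against 9.11% of all genes). The defining markers Hoxa9 and Mecom had 3 or fewer counts in every library. The part of any of these cell types in the mitotic transcripts was not tested.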

How the data were processed

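Gene-level RNA-seq counts were analysed for 8 libraries of mouse blood mononuclear cells (3 fucoidan, 5 saline). The authors deposited 1 table of whole-number read counts for 56748 genes. Per the submitters' processing notes, reads were cleaned with cutadapt 4.0 and Trimmomatic 0.39 and aligned by HISAT2 2.2.1 to GRCm39 (mm39). The sources used here do not name the counting program, annotation release or strand setting. Groups follow the titles, although the protocol field of the fucoidan samples names saline.

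The 40 members and all gene lists were chosen with earlier results of these data known, so they give no independent support. All members could be named. Of each pathway list up to 4 called genes with the smallest p were named, with Foxm1, Mybl2, Cdkn1a, Cdkn1b, Pcna and Mcm2 always given. Of each of the 10 cell type lists the text gives counts, sums and at most 3 abundant or missing markers. The erythroid marker Ahsp was not matched in the table.

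In edgeR 4.0.16 (R 4.3.3), genes passing filterByExpr (14723) were scaled with TMM factors and tested by the robust quasi-likelihood test, with p adjusted over all of them. CPM values are TMM-scaled. The SE is the absolute log2 fold change over the square root of the F statistic, and 95% intervals use its t quantile. The common biological coefficient of variation was 0.188, and 0 pairs of libraries were identical. The procedure was also run on simulated data. There edgeR called 13.4% of genes changed 1.5-fold, 67.2% of those changed 2-fold and 89.4% of those changed 4-fold. A gene not called may therefore still differ by such amounts. With group means removed, libraries of the same number correlated at 0.177, 0.233 and 0.144 and other pairs across groups at -0.261 to 0.144. All same-number values exceeded 0.1, as did fucoidan replicate 2 with saline replicate 5 (0.144), and the labels do not state a pairing. The numbers were taken as possible pairs only. The main fit does not use them, and the fit that blocks on that number (the replicate block) is given where it changes a call. Saline replicates 4 and 5 have no partner. The other alternatives were median-of-ratios and upper-quartile factors, library totals without haemoglobin genes, 2 other filters, DESeq2 1.42.0, limma-voom (limma 3.58.1) and leaving out each library. Promoter sequences are RefSeq's, in GRCm38.p6, and their coordinates were not mixed with those of the count table.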

Additional observations from a re-analysis of the deposited data

Results flagged for a closer look

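In 3 genes 1 saline library lay far from the other saline libraries by Dixon's criterion, in each case saline replicate 2 as the highest. Ccnb1 was at 3.32 CPM there, Bub1b at 8.95 CPM and the replication gene Tyms at 3.21 CPM. The criterion was applied to 64 groups of values, and chance alone flags about 1 in 20 groups. Saline replicate 2 was also the highest saline library for 18 of the 38 mitotic genes tested. No technical or biological reason was tested.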

How the results depend on the processing

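Ube2c (log2 fold change 1.80 to 2.49), Nusap1 (1.64 to 2.33) and Pttg1 (1.08 to 1.44) were called in all 16 alternatives, with adjusted p up to 0.0326, 0.0293 and 0.0187. With the replicate block they were 2.15, 1.95 and 1.24, and no call of a mitotic gene changed. DESeq2 called 5 mitotic genes higher (Racgap1 and Ccna2 added). Library totals without haemoglobin genes moved the median of all genes from -0.04 to -0.23 and that of the mitotic genes above it from 0.41 to 0.39. Under them 2 mitotic genes were lower (Aurkb and Cenpa), 3085 genes were called and 2050 of these were lower, and the lower counts were 6 of other mitotic genes, 8 of DNA replication, 1 of transcription, 1 of CDK inhibitors and G1 cyclins and 5 of the anaphase-promoting complex. With the block, chosen for these lists after the data were seen, 439 genes were lower in all, and higher counts were 3 for other mitotic genes, 1 for DNA replication and 1 for transcription. A mean of log2 CPM in place of the sum gave a ratio of 1.38, against 1.88.

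Leaving out 1 library in turn, mitotic genes called ran from 3 to 6 higher and 0 to 1 lower, and all genes called from 928 to 2224 (746 to 1368 higher, 182 to 856 lower). The lower count was 182 without fucoidan replicate 3, 315 and 365 without fucoidan replicates 2 and 1, and 325 and 447 without saline replicates 4 and 3. Over the same fits, other mitotic genes ran from 3 to 6 higher and 0 to 1 lower, DNA replication from 1 to 2 higher and 0 to 3 lower, CDK inhibitors and G1 cyclins from 0 to 1 lower and the anaphase-promoting complex from 1 to 2 lower. Some uncalled values changed sign. Totals without haemoglobin genes gave -0.10 for Ccnb1, -0.13 for Bub1 and -0.050 for Kif23. The block gave -0.0044 for Ccnb1, 0.11 for Kif20a and 0.0079 for Mcm2, which was also 0.014 with median-of-ratios factors and with DESeq2 and 7.76e-05 with limma-voom. Leave-one-out ranges were -0.070 to 0.51 for Ccnb1, -0.38 to 0.073 for Plk1, -0.19 to 0.24 for Bub1, -0.11 to 0.61 for Cenpe, -0.14 to 0.51 for Kif4, -0.25 to 0.11 for Cdc20, -0.45 to 0.18 for Kif20a and -0.052 to 0.033 for Mcm2. The causes were not tested. Of the 40 genes, 28 averaged under 5 CPM and 14 under 2 CPM in both groups.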
